A study of Schizosaccharomyces pombe 972h- with 8 samples.

Results

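The genes described here are 10 of 4854 genes measured on each of 2 array platforms: ste11, mei2 and msa1, the Ras gene ras1 with its activator ste6, the kinase cascade genes ste4, byr2, byr1 and spk1, and fus1. They were chosen by name, as every row of the deposited tables whose identifier holds one of these symbols, and all 10 had a value on all 8 arrays. RNA came from 2 cultures of the wild-type fission yeast strain 972h-, each grown in rich yeast extract medium and sampled 30 minutes after addition of 0.5 mM hydrogen peroxide (H2O2) and just before it (control, 0 minutes). These RNAs were read on the tiling array with the custom probe file Sp_TMA, whose target keeps the strand of the RNA, and on the expression array with Sp_EMA, whose double-stranded target does not. Each platform therefore has 2 H2O2 and 2 control arrays, and the number of arrays limits the precision. The strain is of a single mating type and was growing in rich medium, so no mating was under way in these cultures, and H2O2 and the time spent with it cannot be told apart.

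In fission yeast, nitrogen starvation turns cells from division to mating and meiosis. Ste11, a transcription factor with an HMG box, is the master activator of this switch: it binds a sequence called the TR box and turns on mei2 and many mating genes. Pheromone from a partner cell is passed on through a G protein, Ras1 and a cascade of kinases, in which Byr2 activates Byr1 and Byr1 activates the MAP kinase Spk1. Mei2, an RNA-binding protein, then starts meiosis.

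The TR box is shown first, because it is the sequence through which Ste11 acts and because some of the 10 genes carry it while others do not. The letters TTCTTTGTT, the core of the TR box, were searched on both strands from 250 bases before to 50 bases after the gene start annotated in ASM294v3. They were found in 5 of the 10 genes, against 2.02% of the 4841 measured genes with such a window. The 5 genes are ste11, mei2, ste6, ste4 and spk1, and they hold 9 matches in all. A pair of further motifs were searched in the same way, the letters CCCCTC of the stress element that the activator Rst2 binds and the letters TGACGT of the element (CRE) that the Atf1-Pcr1 pair binds. CCCCTC was found in ste11 and mei2 (2.17% of all windows hold it) and TGACGT in byr2 alone (5.89% of all windows). The stretches that hold the matches before the gene start are printed 5′ to 3′ on the strand of the gene, with every matched motif in capitals. The sequences are from the RefSeq genome of build ASM294v3, where they lie at chrII:3983199-3983267 (ste11, forward strand), chrI:4515117-4515195 (mei2, reverse), chrIII:1765896-1765924 (ste6, forward), chrI:1296579-1296607 (ste4, reverse), chrI:3001550-3001715 (spk1, reverse) and chrII:1742379-1742404 (byr2, reverse).
ste11: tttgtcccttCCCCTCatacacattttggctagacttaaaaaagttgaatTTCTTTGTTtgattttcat
mei2: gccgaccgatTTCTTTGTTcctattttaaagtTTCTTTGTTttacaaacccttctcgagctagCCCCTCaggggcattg
ste6: attgttagtaAACAAAGAAattcccaaaa
ste4: tgagtatgctTTCTTTGTTataaaagtag
spk1: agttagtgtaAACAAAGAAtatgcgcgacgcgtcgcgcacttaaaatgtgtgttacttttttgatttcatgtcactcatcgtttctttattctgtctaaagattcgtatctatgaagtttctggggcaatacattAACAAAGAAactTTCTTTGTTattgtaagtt
byr2: ttatattgttACGTCAaagagcacga

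In ste6, in byr2 and at 2 of the 3 matches of spk1, the letters stand on the opposite strand, so that the printed strand shows AACAAAGAA or ACGTCA. The spk1 promoter has a pair of matches pointing away from each other, 42 and 54 bases before the gene start. A further match lies 179 bases before it. In mei2, matches lie 130 and 152 bases before the gene start, and another 42 bases after it. The gene fus1, also known as a target of Ste11, has no match in this window, but its leader, the transcribed part before the coding start, holds 2. These lie at chrI:4817573-4817601 and chrI:4817490-4817518 on the reverse strand.
fus1: cagttagtatTTCTTTGTTctttaacggg
fus1: ggttaaaccgAACAAAGAAagttatgttc

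In the 1000 bases before the coding start, TTCTTTGTT was found for 5 of the 10 genes (mei2, ste6, ste4, spk1 and fus1), against 6.34% of all genes. ste11 is not among them because its annotated leader is 2210 bases long. A match of letters is not a measured binding site. The motifs were chosen after the values had been seen.

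**Figure D1:**
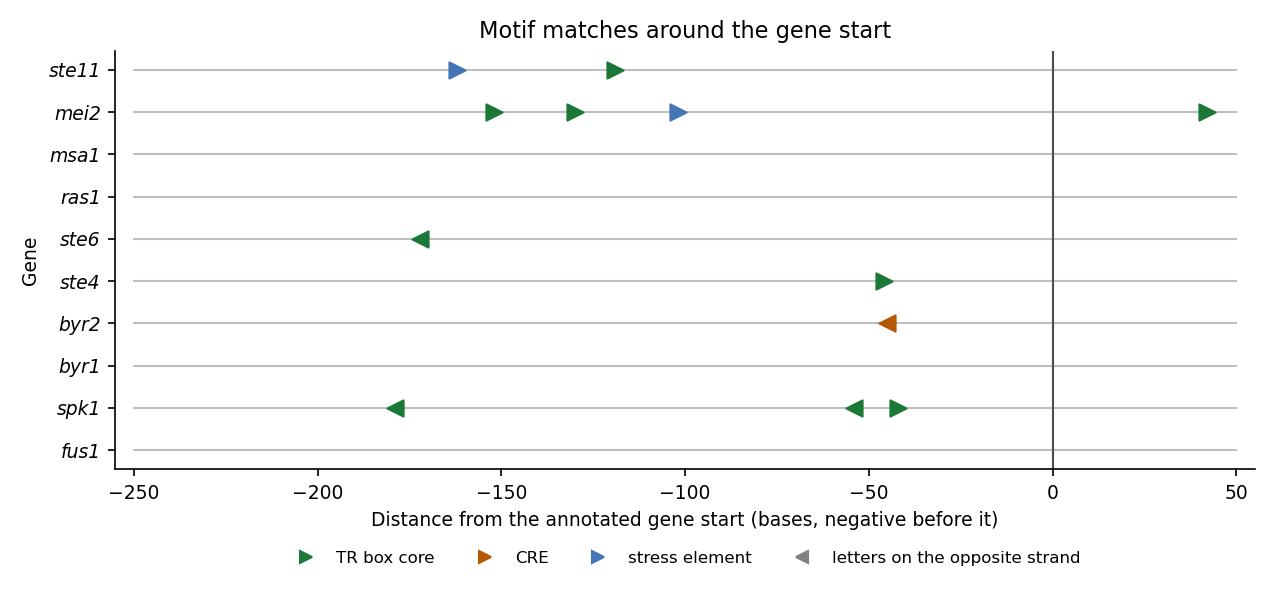
Motif matches around the annotated gene start of the 10 genes, with distance in bases on the x axis (negative before the start) and a row for each gene. Right-pointing triangles have the letters on the strand of the gene and left-pointing ones on the opposite strand. TR box cores (green) are found in ste11, mei2, ste6, ste4 and spk1, the stress element (blue) in ste11 and mei2, and the CRE (orange) in byr2.

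After H2O2, the transcripts of ste11, mei2, msa1, ste6 and spk1 were lower on both platforms, those of byr2 and fus1 were higher, and that of byr1 did not pass the test. At an adjusted p below 0.05 from limma, 7 of the 10 genes fell and 2 rose on Sp_TMA, where 31.3% of all 4854 genes fell, 25.2% rose and 56.5% moved in either direction. On Sp_EMA 6 fell and 2 rose, where 36.2% of all genes fell, 22.7% rose and 59% moved in either direction. The median change of the 10 genes was -0.59 (log2) on Sp_TMA and -0.55 on Sp_EMA, against -0.05 and -0.07 over all genes. The same 6 genes (ste11, mei2, msa1, ras1, ste6 and spk1) were called lower on both platforms, which held for 27% of all genes. The 2 genes called higher on both were byr2 and fus1 (19.8% of all genes), and none of the 10 had opposite calls (0.165% of all genes). A fall of at least 2-fold past the test was found for 4 of the 10 on Sp_TMA and 2 on Sp_EMA, and for 4.18% and 4.84% of all genes. A rise of that size was found for fus1 alone on each platform, and for 6.32% of all genes on Sp_TMA and 5.36% on Sp_EMA. On each platform 8 of the 10 genes are among the dimmest 25% of all genes by mean value. Both platforms read the same cultures, so their agreement is not independent evidence. Arrays of H2O2 and control did not overlap in any of the 10 genes on Sp_TMA and in 8 of them on Sp_EMA. On Sp_TMA 8 of them lay lower and 2 higher without overlap, as 44.7% and 35.5% of all genes did (80.1% together). On Sp_EMA 6 lay lower and 2 higher, as 51.2% and 31.4% of all genes did (82.6% together), so that this separation is not particular to these genes.

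**Figure D2:**
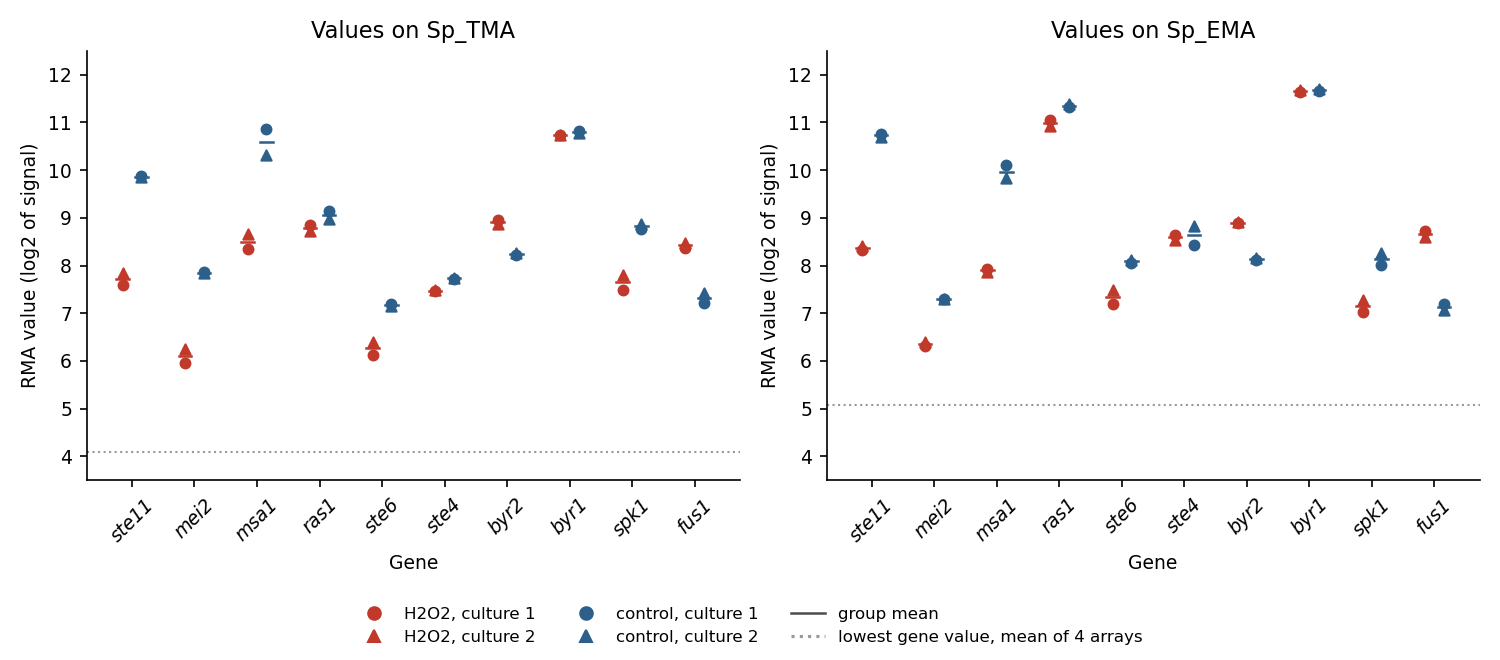
Deposited RMA values (log2) of the 10 genes on the 4 Sp_TMA arrays (left) and the 4 Sp_EMA arrays (right), with H2O2 in red left of control in blue, circles for culture 1, triangles for culture 2 and short lines at the group means. The dotted line is the lowest value of any gene, as the mean over the 4 arrays. For ste11, both H2O2 arrays of Sp_TMA (7.59 and 7.85) lie below both control arrays (9.88 and 9.85), while the values of byr1 nearly coincide.

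ste11, at chrII:3983376-3987400 of ASM294v3 on the forward strand, had the lowest change of the 10 genes on both platforms, close to that of msa1 on Sp_TMA. Its coding part of 1407 bp follows a long leader, as given above. On Sp_TMA its values were 7.59 and 7.85 (log2) in H2O2, against 9.88 and 9.85 in control cells. Both H2O2 arrays were far below both control arrays, and the control arrays differed by little. The change was -2.14 (standard error, SE, 0.10, with an adjusted p of 2.6e-05 by limma), so that the control signal was 4.41-fold that in H2O2. On Sp_EMA the values were 8.32 and 8.40 in H2O2, against 10.76 and 10.70 in control cells, a change of -2.37 (SE 0.06, limma adjusted p = 3.0e-05). An annotated antisense RNA covers 725 of its coding bases.

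mei2, at chrI:4510983-4515025 on the reverse strand with a coding part of 2253 bp, fell as well, by unequal amounts on the platforms. On Sp_TMA it had 5.95 and 6.26 in H2O2, against 7.86 and 7.84 in control cells. The change was -1.75 (SE 0.11, limma adjusted p = 7.9e-05), 3.35-fold lower. On Sp_EMA it had 6.32 and 6.39 in H2O2, against 7.30 and 7.29 in control cells, and here the change was -0.94 (SE 0.05, limma adjusted p = 1.6e-04), 1.92-fold lower. The groups were apart on both platforms, but the fall on Sp_TMA was deeper. On Sp_EMA its H2O2 and control means lay 1.27 and 2.22 above the lowest gene value, against 1.94 and 3.82 on Sp_TMA. Whether this nearness to the lowest value bears on the unequal falls was not tested. The difference between the changes was -0.80 (95% interval -1.04 to -0.57, adjusted p = 0.00655 from limma on the Sp_TMA minus Sp_EMA values). It is the only one of the 10 genes past the threshold of this test, which 9.81% of all genes passed, 2.78% with the lower and 7.03% with the higher change on Sp_TMA. Antisense RNAs are annotated over 642 and 217 of its coding bases, and Sp_EMA does not separate them from mei2. Annotated antisense RNAs also cover coding bases of other genes among the 10, such as ste6 and byr1 (all of them) and byr2 (1495 of 1980). These antisense RNAs have no value of their own among the measured genes. Their part in the difference of mei2 was not tested.

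msa1 encodes an RNA-binding protein known as a negative regulator of sexual differentiation, and it fell with the activator ste11. On Sp_TMA its values were 8.34 and 8.66 in H2O2, against 10.87 and 10.32 in control cells. The control cultures stood apart more than for any other of the 10 genes on this platform (SD 0.39, n = 2), yet both lay above both H2O2 arrays. The change was -2.10 (SE 0.19, limma adjusted p = 2.8e-04). On Sp_EMA it had 7.93 and 7.86 in H2O2, against 10.10 and 9.83 in control cells, a change of -2.07 (SE 0.10, limma adjusted p = 1.2e-04). The changes on the platforms differed by -0.03 (95% interval -0.36 to 0.31). The gene lies at chrI:2318492-2322825 on the reverse strand, and an annotated antisense RNA covers all 1602 of its coding bases.

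Ras1, the GTPase that passes the pheromone signal to the kinases and also shapes growing cells, changed by little. On Sp_TMA ras1 had 8.85 and 8.72 in H2O2, against 9.14 and 8.97 in control cells, a change of -0.27 (SE 0.09, limma adjusted p = 0.0478). Its Sp_EMA values were 11.06 and 10.93 in H2O2, against 11.32 and 11.38 in control cells, a change of -0.36 (SE 0.06, limma adjusted p = 0.00674). The call on Sp_TMA stands at the threshold. It was lost without each array in turn, at -0.34 without H2O2 array 1, -0.21 without H2O2 array 2, -0.19 without control array 1 and -0.36 without control array 2. It was also lost with quantile normalization of the gene values (-0.18). On Sp_EMA the call held without each array. The gene leu5, of coenzyme A transport, overlaps 655 of the 660 coding bases of ras1 on the opposite strand, with 0 under its coding part. It fell too, by 0.79 on Sp_TMA and 0.58 on Sp_EMA, and on Sp_EMA its signal and that of ras1 cannot be told apart by strand.

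ste6 encodes the exchange factor that activates Ras1 in mating, and it fell more than ras1. On Sp_TMA it had 6.13 and 6.41 in H2O2, against 7.20 and 7.16 in control cells, a change of -0.91 (SE 0.11, limma adjusted p = 7.6e-04). The Sp_EMA arrays gave 7.20 and 7.48 in H2O2, against 8.06 and 8.11 in control cells, a change of -0.74 (SE 0.10, limma adjusted p = 0.00246). Control arrays nearly coincided on both platforms, and H2O2 arrays spread more (SD 0.20 on each, n = 2) without reaching them.

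ste4 encodes an adaptor that binds the kinase Byr2, and its change was small and uncertain. On Sp_TMA it had 7.46 and 7.48 in H2O2, against 7.71 and 7.75 in control cells, a change of -0.26 (SE 0.07, limma adjusted p = 0.0253). With the culture as a replicate block the adjusted p = 0.0658, and the call was also lost without each array in turn, with changes from -0.27 to -0.24. Quantile normalization of the gene values gave -0.12 (limma adjusted p = 0.196). For Sp_EMA the values were 8.64 and 8.54 in H2O2, against 8.44 and 8.83 in control cells. The groups overlapped there, with a rise of 0.20 in culture 1 and a change of -0.29 in culture 2. The mean change was -0.04 (95% interval -0.39 to 0.31, adjusted p = 0.802 from limma). Without control array 1 it was -0.24 and passed the test, while it was 0.15 without control array 2 and 0.01 without H2O2 array 2.

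The kinases of the cascade did not change together: the transcript of byr2 at its top rose, that of byr1 in the middle stayed close to its control value and that of spk1 at its end fell. byr2, the MAP kinase kinase kinase, had 8.96 and 8.87 on Sp_TMA in H2O2, against 8.22 and 8.27 in control cells. The change was 0.67 (SE 0.08, limma adjusted p = 7.0e-04), 1.59-fold higher. Its Sp_EMA values were 8.88 and 8.91 in H2O2, against 8.12 and 8.15 in control cells, a change of 0.76 (SE 0.05, limma adjusted p = 2.3e-04). The per-culture rises on Sp_EMA were 0.76 and 0.75.

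byr1, the MAP kinase kinase, had 10.73 and 10.74 on Sp_TMA in H2O2, against 10.83 and 10.77 in control cells. The Sp_EMA arrays gave 11.63 and 11.67 in H2O2, against 11.66 and 11.69 in control cells. The changes were -0.06 (95% interval -0.24 to 0.12, adjusted p = 0.507 from limma) and -0.02 (95% interval -0.15 to 0.11, adjusted p = 0.707). These intervals allow a change of at most 0.24 in size. The H2O2 and control arrays overlapped on Sp_EMA.

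spk1, the MAP kinase itself, had 7.49 and 7.80 on Sp_TMA in H2O2, against 8.76 and 8.87 in control cells. The change was -1.17 (SE 0.12, limma adjusted p = 3.9e-04), 2.25-fold lower. For Sp_EMA the values were 7.02 and 7.27 in H2O2, against 8.00 and 8.27 in control cells, a change of -0.99 (SE 0.13, limma adjusted p = 0.00197). Culture 2 was the higher one in both conditions on both platforms. The gene hem4 (ups1 in the files), an enzyme of haem synthesis, covers all 1119 coding bases of spk1 on the opposite strand of chrI:2999546-3001518. Of these bases, 0 lie under the coding part of hem4. hem4 fell by 0.51 on Sp_TMA and by 0.54 on Sp_EMA. Its signal is separated from that of spk1 by strand on Sp_TMA but not on Sp_EMA. Its part in the fall of spk1 was not tested.

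fus1, which encodes the formin of cell fusion between mating partners, rose the most of the 10 genes. On Sp_TMA it had 8.38 and 8.47 in H2O2, against 7.22 and 7.42 in control cells. The change was 1.10 (SE 0.10, limma adjusted p = 2.4e-04), 2.14-fold higher. Its Sp_EMA values were 8.72 and 8.61 in H2O2, against 7.20 and 7.06 in control cells, and the change was 1.53 (SE 0.08, limma adjusted p = 1.2e-04), 2.90-fold higher. The groups were far apart on each platform. The difference between the changes, -0.43 (95% interval -0.74 to -0.13), did not pass the test (adjusted p = 0.0786 from limma). It did with the culture as a replicate block (adjusted p = 0.00909), and without control array 1 of both platforms (-0.61). An annotated antisense RNA covers 3105 of the 4119 coding bases of fus1, at chrI:4813111-4817786 on the reverse strand. Its part in the rise on Sp_EMA was not tested.

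**Figure D3:**
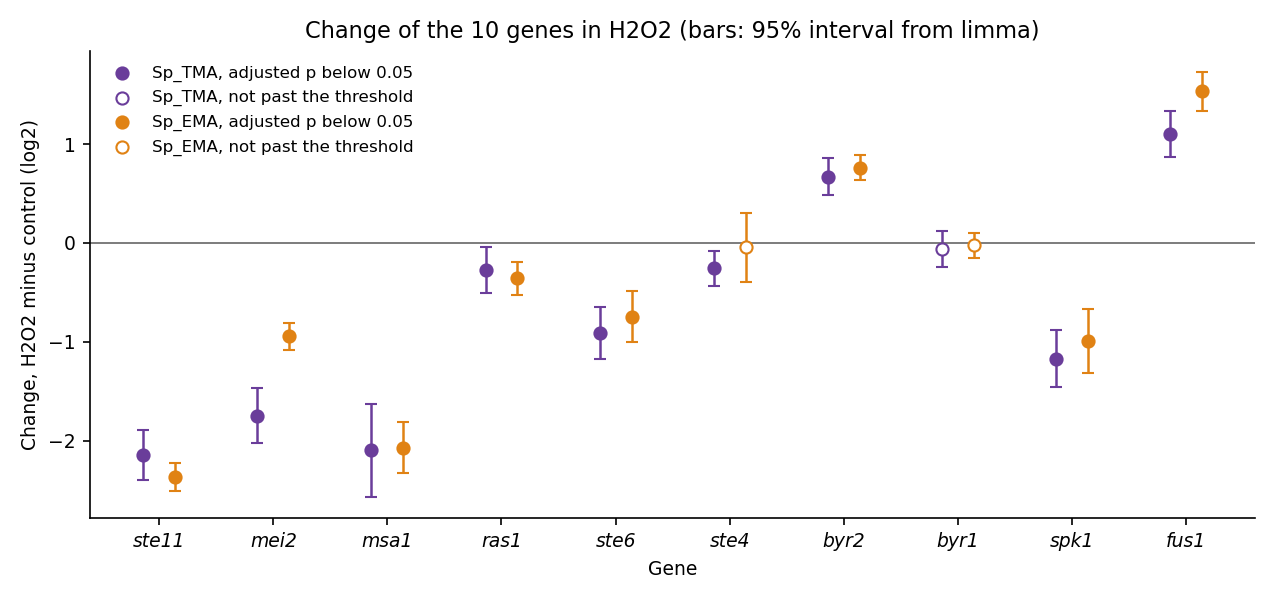
Change of the 10 genes in H2O2 relative to control (log2, y axis) on Sp_TMA (purple) and Sp_EMA (orange), with 95% intervals from limma, filled points at an adjusted p below 0.05 and open points otherwise. ste11 (-2.14 and -2.37), mei2, msa1, ste6 and spk1 lie below 0, byr2 and fus1 (1.10 and 1.53) above it, and byr1 at it.

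Set side by side, the changes of the 10 genes had the same sign on both platforms, and mei2 lay farthest from equal change. Intervals of the difference between platforms for the 8 genes besides mei2 and fus1 lay between -0.51 and 0.44, and none of these genes passed the test (adjusted p from 0.153 for ste11 to 0.915 for msa1, from limma). That leaves room for differences of that size. Per culture, each of the 10 genes moved the same way in both cultures on both platforms, apart from ste4 on Sp_EMA.

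**Figure D4:**
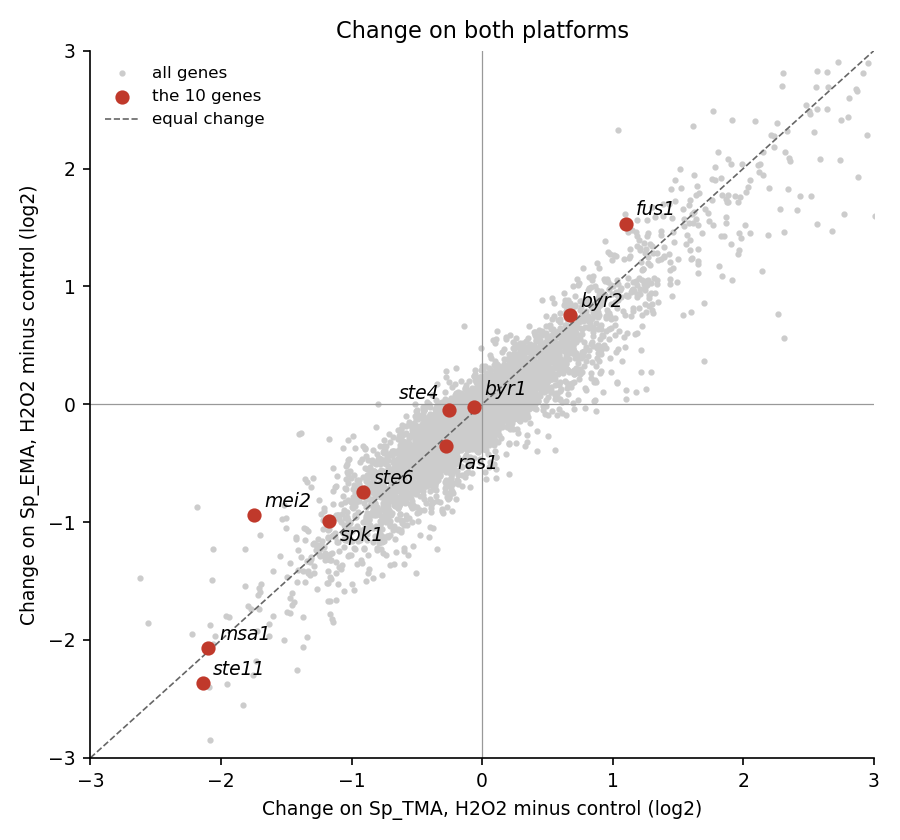
Change in H2O2 (log2) on Sp_TMA (x axis) and Sp_EMA (y axis) for all 4854 genes (grey) and the 10 genes (red), with 41 genes outside the range of the axes. Most of the 10 lie near the dashed line of equal change, mei2 (-1.75 and -0.94) lies above it, and fus1 (1.10 and 1.53) lies above it among the genes that rose.

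The nearest pair among the 10 genes, by distance over the 8 arrays after the control mean of each platform was taken off, was ste4 and byr1 (0.392), which changed by little, followed by ras1 and ste4 (0.533). Among the genes that fell by more, the distance between ste11 and msa1 was 0.588, that between ste6 and spk1 0.535 and that between mei2 and spk1 0.855. The widest distance was that between ste11 and fus1, at 7.17. These are Euclidean distances in log2 units, given as a description. Among all genes, the closest to ste11 was fta5, a glycoprotein gene (distance 0.279), which changed by -2.10 on Sp_TMA and -2.40 on Sp_EMA. It was followed by SPBP4H10.14c (0.315), the septum glucanase gene eng1 (0.511), the nicotinic acid transporter gene SPAC1002.16c (0.514) and oxa102 (0.569). The median distance of all genes from ste11 was 4.39. Closest to mei2 were the calcium transporter gene SPAC24H6.13 (0.272), the glucanosyltransferase gene gas1 (0.372), the glucanase gene SPBP23A10.11c (0.417), the glutathione transporter gene pgt1 (0.433) and the glycoprotein gene SPBC1289.15 (0.438), where the median over all genes was 2.71. None of these 10 neighbours is among the 10 genes of the cascade.

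Among known controllers of ste11 and Mei2, some rose, some fell and some were not called. Of 26 such genes, 8 were called higher and 9 lower on Sp_TMA, and 9 higher and 8 lower on Sp_EMA, with a median change of -0.03 and 0.01. On Sp_TMA 30.8% were called higher and 34.6% lower, beside 25.2% and 31.3% of all genes, and on Sp_EMA 34.6% and 30.8%, beside 22.7% and 36.2% of all genes. The 4 with the largest change were the regulatory subunit of protein kinase A cgs1 (2.54 on Sp_TMA and 2.31 on Sp_EMA), its catalytic subunit pka1 (2.12 and 1.97), the cAMP phosphodiesterase cgs2 (2.05 and 1.90) and pcr1 (1.92 and 2.41), the partner of Atf1. pat1, the kinase that restrains Ste11 and Mei2, changed by 0.99 and 0.94, and rst2, the activator of ste11 under protein kinase A, by 0.52 and 0.47. The glucose receptor gene git3 changed by -1.27 and -1.19, and nrd1, an RNA-binding repressor of Ste11 targets, by -0.73 and -0.74. atf1 itself changed by 1.26 and 1.43. These last 5 genes were chosen after their values were seen. Without control array 1, 5 in place of 9 controllers were called lower on Sp_TMA.

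Most of the other genes of pheromone signalling were called lower. Of 24 outside the 10, 15 fell and 1 rose on Sp_TMA (62.5% and 4.17%), and 15 fell and 2 rose on Sp_EMA (62.5% and 8.33%), with a median change of -0.45 and -0.38. No test of the list was made, so these shares stand beside the 31.3% and 36.2% of all genes as a description. rgs1, which damps the G protein, changed by -1.60 on Sp_TMA and -1.42 on Sp_EMA, gpa1, the alpha subunit of that G protein, by -1.34 and -1.33, and map3, the receptor for M-factor, by -1.14 and -0.54. The genes that rose were mfm3, a precursor of M-factor (1.29 and 0.28), and on Sp_EMA ste13, an RNA helicase (0.20). With the culture as a replicate block or without H2O2 array 1, 2 genes were called higher on Sp_TMA. Without H2O2 array 1, H2O2 array 2 or control array 2, 1 was called higher on Sp_EMA. Single values of mfm1, mfm2 and mfm3 should be read with caution. M-factor is encoded by several genes of near-identical peptide. The probe files keep unique probes, and whether related transcripts still add signal was not tested. For mfm1 on Sp_TMA, the H2O2 arrays gave 5.30 and 6.82.

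Known targets of Ste11 outside the 10 were called lower more often than higher. Of 14, 8 fell and 3 rose on each platform (57.1% and 21.4%, beside 31.3% and 25.2% of all genes on Sp_TMA and 36.2% and 22.7% on Sp_EMA), with a median change of -0.45 on Sp_TMA and -0.44 on Sp_EMA. The 3 that rose were mfm3, rep1, an activator of premeiotic replication (0.71 and 0.92), and map1, a transcription factor of P cells (0.45 and 0.36). TTCTTTGTT stands in the gene start window of 5 of the 14, namely map1, mfm1, mfm3, rep1 and rgs1, of which map1, mfm3 and rep1 rose on both platforms and rgs1 fell on both. Many of these genes are also in the pheromone list, so the counts are not independent. The targets map1, map2 and map3 are markers of plus cells, while the strain is of the minus type, and map2 and map3 are in both lists.

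Genes around Mei2 and its partner Mmi1, which destroys meiotic transcripts in dividing cells, gave calls in both directions. Of 9 measured, 4 rose and 2 fell on Sp_TMA (44.4% and 22.2%, beside 25.2% and 31.3% of all genes), and 3 rose and 2 fell on Sp_EMA (33.3% and 22.2%, beside 22.7% and 36.2% of all genes). mei4, the forkhead activator of middle meiosis, rose by 1.09 and 1.50, rec8, the meiotic cohesin, by 0.91 and 0.28, and the meiotic cyclin gene crs1 by 0.65 and 0.34. On Sp_TMA the rise of crs1 was 0.21 in culture 1 and 1.08 in culture 2. mei3, the inhibitor of Pat1, rose on Sp_TMA (0.79) and had a change of 0.13 on Sp_EMA. There its H2O2 and control means lay only 0.68 and 0.56 above the lowest gene value. spo5 changed by -1.07 and -0.37 and mmi1 by -0.41 and -0.55. On Sp_EMA, 1 in place of 3 was called higher without H2O2 array 2.

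**Figure D5:**
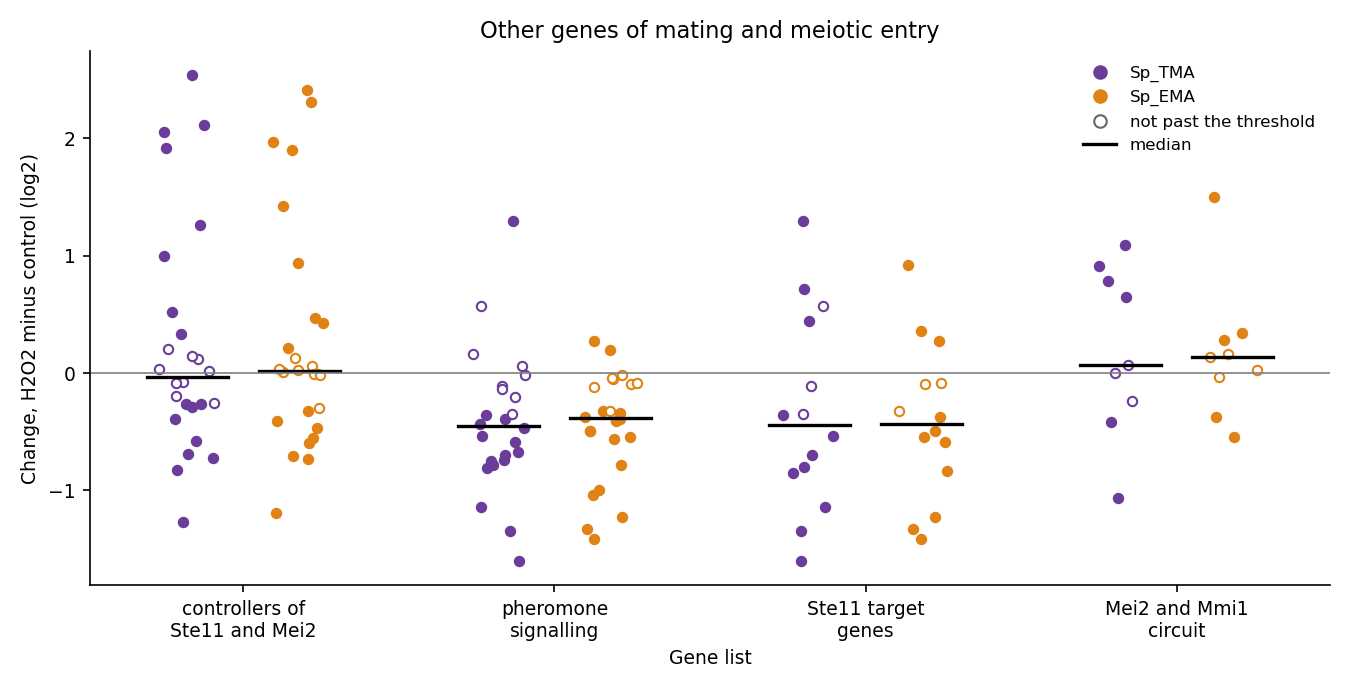
Change in H2O2 (log2, y axis) of the other genes of mating and meiotic entry on Sp_TMA (purple) and Sp_EMA (orange), with a point for each gene, open where the adjusted p is 0.05 or more, and a black line at the median of each list. The pheromone list and the Ste11 targets have medians of -0.45 on Sp_TMA, while the controllers spread from -1.27 to 2.54 around a median of -0.03.

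Markers of the mating types were measured beside the 10 genes. For cells of the minus type, the markers mfm1, mfm2, mfm3, mam1 and mam2 were taken, of which 1 rose and 1 fell on Sp_TMA (mfm3, and mam1 by 0.36), and 1 rose and 2 fell on Sp_EMA (mfm3, mfm2 by 1.23 and mam2 by 0.50). Of the markers of plus cells, map1 rose on both platforms, map3 fell on both and map2 fell on Sp_TMA (by 0.70). With the culture as a replicate block, 2 minus markers were called in each direction on Sp_TMA, and 2 plus markers were called lower on Sp_EMA. mfm1 was among the minus markers called higher on Sp_TMA, although it changed by -0.57 in culture 1 and 1.72 in culture 2. The rise of map1 was not called on Sp_TMA without H2O2 array 2 or control array 2, nor on Sp_EMA without either H2O2 array. With an array left out, 0 to 2 minus markers were called lower on Sp_TMA (0 without H2O2 array 1 or control array 1, and 2 without control array 2) and 1 to 2 higher (2 without H2O2 array 1). On Sp_EMA 1 minus marker was called lower without either H2O2 array, and 2 plus markers were without control array 1. Levels of different genes are not comparable on arrays, so the mating type of the strain was not checked from them.

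Among all genes that carry TTCTTTGTT at their start, the shares called lower were close to those of all genes once the 5 carriers described here were left out. Of the 98 carriers in all, 34 fell and 20 rose on Sp_TMA, and 42 fell and 21 rose on Sp_EMA. Without the 5, 31.2% fell on Sp_TMA and 40.9% on Sp_EMA, against 31.3% and 36.2% of all genes. Among the 10 genes, all 5 carriers were called lower on Sp_TMA and 4 on Sp_EMA (ste4 was not). Of the 5 without a match in the gene start window, 2 were lower (msa1 and ras1) and 2 higher (byr2 and fus1) on each platform. This split depends on the window. In the longer window before the coding start, the carriers were mei2, ste6, ste4, spk1 and fus1. There a carrier, fus1, rose on both platforms, while ste11, which fell on both, had no match. The motif was also chosen after the values had been seen.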

How the data were processed

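Each array came with 1 deposited log2 value per gene. The authors computed it by RMA, which adjusts background, normalizes by quantiles and summarises probes by median polish (its version is not given in the sources used here), on custom probe files that keep unique probes within exons or open reading frames. They were used as deposited for the 4854 genes on both platforms. For each platform, the 2 H2O2 arrays were set against the 2 control arrays in limma 3.58.1 in R 4.3.3 (lmFit, eBayes, Benjamini-Hochberg over all genes, adjusted p below 0.05, two-sided), and between platforms on the Sp_TMA minus Sp_EMA value of each RNA sample. Exact permutation of 4 arrays allows no p below 0.333 for 1 gene, so that test was not used. On simulated data, the Sp_TMA fit recovered 28 of 67 genes changed by 0.5 (log2), 55 of 67 changed by 1 and 65 of 66 changed by 2, the Sp_EMA fit 46, 60 and 65, and the fit of the difference between platforms 36, 58 and 65, each over 4854 genes. Other genes called numbered 4, 9 and 6. Only these few genes were changed in the simulation, while 56.5% of all genes were called on Sp_TMA and 59% on Sp_EMA. The simulation therefore does not measure recovery at the cutoff that the data had.

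Arrays with the same replicate number come from the same culture by the methods of the paper. Differences between cultures in H2O2 and in control correlated across genes at r = -0.0585 on Sp_TMA and 0.253 on Sp_EMA. The culture as a replicate block was an alternative, as were an intensity trend in the variance, a robust variance prior (within each platform only), leaving out each array, centring arrays or normalizing their gene values by quantiles, dropping the dimmest 25% of genes, a 0.01 threshold and a 2-fold minimum. On Sp_TMA the adjusted p-values of the block fit followed the size of the change alone, whatever the spread of a gene. Block calls on Sp_TMA therefore take no account of how far the cultures of a gene differ. Both tables hold the same genes, so fits to all genes of a platform are those already described. Of the 4854 genes, 4845 were matched by systematic name to RefSeq's annotation of ASM294v3, which gave positions, overlaps and promoters. The build behind the probe files is the Sanger Centre annotation, and no coordinate of it was used. Lists were of 26 controllers of ste11 and Mei2, 24 pheromone signalling genes, 14 Ste11 targets, 9 genes around Mei2 and Mmi1 (sme2 was not matched), 5 markers of minus and 3 of plus cells, from general knowledge. Named are the 10 genes, from each list up to 4 genes called alike on both platforms (those that changed most on Sp_TMA), counts of 5 or fewer, and the 5 genes nearest to ste11 and to mei2. A few genes of the lists beyond this rule, chosen after their values were seen, are named for their role. Genes and lists were chosen with earlier results of these data known. Figures were made with Python 3.11.15 and matplotlib 3.10.9.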

Additional observations from a re-analysis of the deposited data

Results flagged for a closer look

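Taken here are the 10 genes and, from each list, the up to 4 genes called alike on both platforms. For 6 of these, the change in H2O2 on Sp_TMA differed from that on Sp_EMA by the test of the difference itself. For mei2 the difference was -0.80 (log2, adjusted p = 0.00655 from limma), the fall being deeper on Sp_TMA. The other 5 are genes of the lists. The rise of pcr1 was smaller on Sp_TMA (difference -0.49, adjusted p = 0.0159), and the falls of map3 (-0.60, adjusted p = 0.0218) and spo5 (-0.70, adjusted p = 0.0118) were deeper there. The rises of mfm3 (1.02, adjusted p = 0.0218) and rec8 (0.63, adjusted p = 0.007) were larger on Sp_TMA. Of other genes named from the lists, mfm2 (0.88, limma adjusted p = 0.0277) and mei3 (0.65, limma adjusted p = 0.0404) also passed this test. In each of the 6, both cultures of both platforms moved in the direction of the mean change. On Sp_EMA the H2O2 and control means of rec8 lay only 0.86 and 0.59 above the lowest gene value. Those of spo5 lay 0.67 and 1.05 above it, those of mei3 0.68 and 0.56 and those of mfm3 1.49 and 1.23. Those of map3 lay 2.84 and 3.39 above it, those of mfm2 4.61 and 5.86 and those of pcr1 8.10 and 5.71. The part of this in the differences was not tested. Of all genes, 9.81% passed this test.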

How the results depend on the processing

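Among the 10 genes, ste11, mei2, msa1, ste6 and spk1 as lower and byr2 and fus1 as higher kept their direction and call on both platforms under every alternative run that tested them, apart from the 2-fold minimum, which left 1 higher and 4 lower on Sp_TMA and 1 higher and 2 lower on Sp_EMA. Without the dimmest 25% of genes only 2 of the 10 were tested on each platform, of which 0 were called higher and 1 lower. That setting left 7 pheromone genes called lower on Sp_TMA and 9 on Sp_EMA, in place of 15 on each, and 0 and 1 Ste11 targets, in place of 8 on each. Leaving out an array gave 2 higher and 5 lower on Sp_TMA, and 2 higher and 6 to 7 lower on Sp_EMA. ste4 on Sp_EMA turned to 0.14 with quantile normalization, and ranged from -0.24 to 0.15 with an array left out. The cause of such turns was not tested.

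For the difference between platforms, mei2 was called under every alternative but the 2-fold minimum (0 called) and the dimmest genes left out, where it was not tested (0 called). With the culture as a replicate block 2 were called (mei2 and fus1), with quantile normalization 2 (mei2 and ste6), and with an array pair left out 1 to 2. Uncalled differences turned with a pair left out for msa1 (-0.22 to 0.17), byr1 (-0.0861 to 0.00855) and ras1 (-0.0293 to 0.20). Over all genes, 341 changes were called higher and 135 lower on Sp_TMA, against 70 to 310 and 23 to 119 with an array pair left out, 53 and 17 at a threshold of 0.01 and 12 and 6 with a 2-fold minimum. Quantile normalization gave 331 lower, and 49.4% in place of 71.6% of calls were then higher on Sp_TMA. With a 2-fold minimum, 307 genes were higher and 203 lower on Sp_TMA, against 1222 and 1519 without it, and 260 and 235 on Sp_EMA, against 1104 and 1759. Leaving out an array gave 885 to 1066 higher and 1145 to 1324 lower genes on Sp_TMA, and 810 to 1062 and 1300 to 1708 on Sp_EMA. The replicate block changed no other call among the 10 genes than those of ste4 and fus1. On Sp_TMA that block took no account of a gene's own spread. A fit to all genes of a platform was not run, because both tables hold the same genes.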

Other observations

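For most genes that fell, the cultures differed in the size of the fall. On Sp_TMA the fall was deeper in culture 1 than in culture 2 for ste11 (-2.29 and -2.00), mei2 (-1.91 and -1.58), msa1 (-2.53 and -1.67), ste6 (-1.07 and -0.76) and spk1 (-1.27 and -1.07). On Sp_EMA the same order was found for ste11 (-2.43 and -2.30), mei2 (-0.98 and -0.90), msa1 (-2.17 and -1.97) and ste6 (-0.86 and -0.63), but not for spk1 (-0.98 and -0.99). ras1 had -0.30 and -0.25 on Sp_TMA but the other order on Sp_EMA (-0.27 and -0.45), and ste4 had -0.25 and -0.26 on Sp_TMA. In H2O2, culture 2 had the higher value for 8 of the 10 genes on Sp_TMA and for 6 on Sp_EMA. Both platforms read the same RNA, and 2 cultures allow no test of this order.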
